A study of Mus musculus with 6 samples.

Results

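The genes that write and erase DNA methylation were followed in mouse B progenitor acute lymphoblastic leukemia before and after the return of Pax5, a transcription factor on which B cell identity depends. The group was chosen by name and holds 7 genes of 26286 in the table: Dnmt1, Dnmt3a, Dnmt3b and Uhrf1 on the writing side, and Tet1, Tet2 and Tet3 on the erasing side. All 7 were found by symbol. The untreated group held 3 libraries of GFPhigh cells. The dox group held 3 libraries of GFPmid cells from mice fed doxycycline (dox) for 3 days, which the labels call Pax5 restoration. Every library came from leukemia A024, labelled tri-transgenic, whose cells were sorted by flow cytometry out of the marrow of leukemic Rag1 knockout animals. The series' design text counts 1 mouse per library, so the spread is between mice that carry 1 leukemia. The labels used here do not describe the transgenes. From general knowledge of the model, dox shuts off a hairpin RNA against Pax5 that is made together with GFP. Gate and treatment changed together, so their effects cannot be told apart.

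Methylated cytosine in CpG pairs is copied after DNA replication by Dnmt1, the maintenance methyltransferase, which Uhrf1 recruits to half-methylated sites. Dnmt3a and Dnmt3b place methyl groups on DNA that had none. The TET enzymes oxidise methylcytosine, which leads to its loss through base repair or through replication. In B cell development, TET activity is known for opening enhancers of light chain and other lineage genes, and Dnmt3a and Tet2 are known for frequent mutation in blood cancers of the myeloid and T lineages.

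Total counts per library lay between 14185203 and 15612435. Pax5 stood at 153.8, 93.5 and 105.2 CPM (counts scaled to the size of each library) in the untreated libraries. With dox, replicates 1, 2 and 3 had 227.2, 281.2 and 230.6 CPM of Pax5 (log2 fold change 1.07, SE 0.17, edgeR adjusted p = 0.000695). All 10 B lineage markers on the list used were measured, with summed levels of 6103 to 6426 CPM in untreated and 9558 to 10480.0 CPM in dox libraries. Over all genes, 53.6% of the 12275 tested were called different at an adjusted p under 0.05 (edgeR quasi-likelihood test, Benjamini-Hochberg over all genes), 27.0% higher and 26.6% lower. That background stands behind each count below. Of the 10 B lineage markers, 8 were called higher, Cd24a was called lower and Dntt was not called. The mean of Cd24a fell from 1928 ± 7.62 to 1050 ± 73.8 CPM (SD, n = 3 each).

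Of the 7 genes, 6 passed the filter on low counts, and 4 of these 6 were called, a share near the background. The genes of maintenance methylation, Dnmt1 and Uhrf1, fell 2.19-fold and 2.23-fold. Dnmt3b fell 1.37-fold, Tet1 rose 2.65-fold from a low level, and Dnmt3a and Tet3 were not called. Tet2 had too few counts to be tested. Groups did not overlap for 5 of the 6 tested genes, 3 of them lower and 2 higher with dox. Over all genes tested 62.2% did not overlap, 31.0% lower and 31.2% higher.

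Dnmt1 and Uhrf1 fell together with genes of DNA replication. Sequences at the start sites of the group's genes are shown first, as a description. RefSeq windows of assembly GRCm38.p6, from 250 bases before to 50 bases after an annotated start, were searched on both strands for TTTCCCGC, TTTGGCGC, TTTCGCGC and TTTGCCGC, letters of the E2F type. The group had 12 such windows, and 3 matches lay in 2 of them, 1 window of Dnmt1 and 1 of Uhrf1. No match lay in the windows of Dnmt3a, Dnmt3b, Tet1, Tet2 or Tet3. Of all windows of that length, 2.26% of 32851 held at least 1 of these 8-base words, or 2.6% of genes. Of 30 S phase genes, 24 had a window and 10 of these (41.7%) held a match. Many genes on that list are known targets of E2F factors, so a high share follows from its choice. Each of the words searched holds a CpG pair, and the windows behind the overall share were not matched for CpG content. Whether E2F factors had a part in the fall was not tested. The 3 matches are given 5′ to 3′ along the gene's strand, with the matching bases in capitals.
Dnmt1, chr9:20952574-20952603, minus strand: gcgcggggcagcgTTTGGCGCgggctgtgc
Dnmt1, chr9:20952824-20952853, minus strand: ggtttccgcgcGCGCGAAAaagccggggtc
Uhrf1, chr17:56304117-56304146, plus strand: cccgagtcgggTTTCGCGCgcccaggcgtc

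The first Dnmt1 match began at position 34 counted from the start site and the second, which reads on the other strand, at position -219. Both lay in exons of 5′ untranslated regions in the GENCODE annotation of that assembly, from transcripts with different starts. The Uhrf1 match began at position -185 of its window, in an intron of transcripts that start further upstream. A match is a run of letters and not evidence that a factor binds there. The same windows of Dnmt1 and Uhrf1 held 33 CpG pairs each, more than 91.4% of all windows. The window of Tet1 held 17 CpG pairs and that of Tet2 held 57, more than 68.6% and 99.8% of all windows.

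Uhrf1, which binds half-methylated DNA and brings Dnmt1 to it, was the most abundant of the 7 genes. Untreated replicates 1, 2 and 3 had 1310.3, 1430.6 and 1519 CPM, and dox replicates 1, 2 and 3 had 622, 672 and 614 CPM. Every dox library lay far below every untreated one. The mean fell from 1420.0 ± 105 to 636 ± 31.4 CPM (SD, n = 3 each), with a log2 fold change of -1.16 (SE 0.08, adjusted p = 1.05e-05, edgeR). In bulk libraries, fewer cells that make a transcript and less of it per cell cannot be told apart.

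Dnmt1 followed closely. Untreated replicates 1, 2 and 3 had 811, 1046 and 1024 CPM, against 430.1, 434 and 454 CPM in the dox replicates in the same order. Untreated replicate 1 was the lowest of its group and still stood above all dox libraries. The mean fell from 960.4 ± 130 to 439 ± 12.9 CPM (SD, n = 3 each), a log2 fold change of -1.13 (SE 0.10, adjusted p = 3.03e-05, edgeR). Within a library, the log2 ratio of Dnmt1 to Uhrf1 per gene length was -1.10 ± 0.12 in untreated and -1.06 ± 0.10 in dox libraries (SD, n = 3). The ratio differed by 0.04 (exact two-sided permutation test over libraries, p = 0.7, adjusted p = 1 over the 6 ratios tested), less than the spread between libraries.

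**Figure D1:**
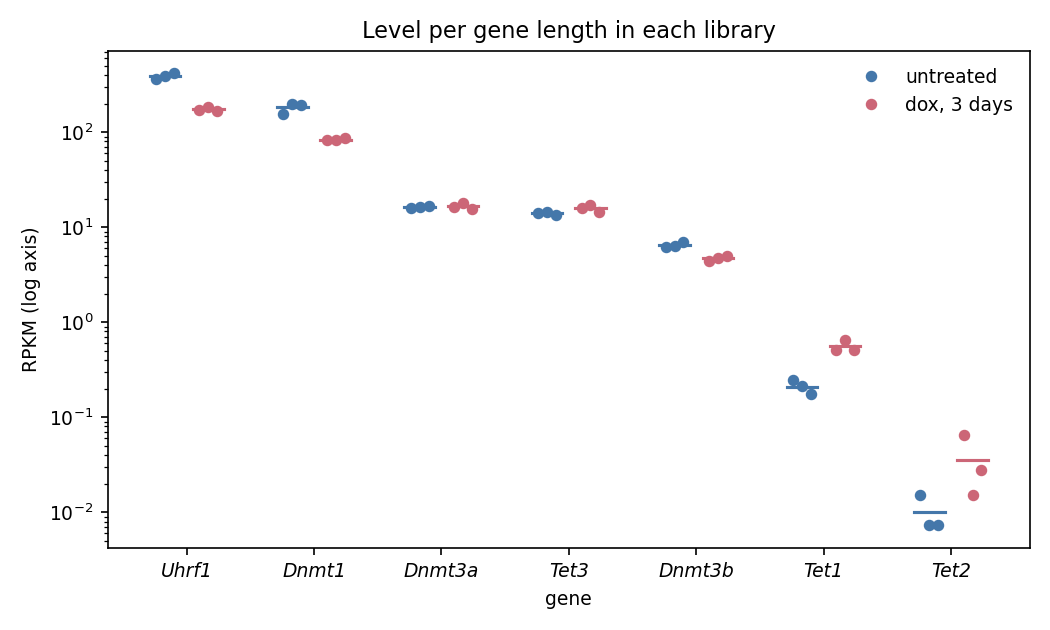
Level of each gene per gene length (RPKM, log axis) in the 6 libraries; points are libraries and short lines are group means. Uhrf1 and Dnmt1 stand highest and drop after dox, Dnmt3a and Tet3 lie between 13.6 and 18.1 RPKM, and Tet1 and Tet2 lie below 1 RPKM.

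The fall of both genes had the size of that of the replication machinery. All 30 S phase genes on the list used were called lower, with log2 fold changes between -1.44 and -0.64 and a median of -1.21, where the median of all genes tested was 0.01. That such genes fell was known when the list was chosen. The helicase subunit Mcm2 fell by 1.21, the licensing factor Cdc6 by 1.40 and E2f1, a driver of S phase, by 1.41 on the log2 scale. Of the 30, 22 fell further than Dnmt1, 20 further than Uhrf1 and all 30 further than Dnmt3b. Against the geometric mean of the 30 genes in the same library, the log2 ratio of Dnmt1 was 1.28 ± 0.14 in untreated and 1.33 ± 0.02 in dox libraries, and that of Uhrf1 was 2.37 ± 0.05 and 2.39 ± 0.11 (SD, n = 3). The differences of 0.05 and 0.01 were within the spread between libraries (exact permutation p = 0.9 and 1). In untreated replicate 1, where the S phase genes stood at 94.6% of the untreated mean, Dnmt1 stood at 84.5% and Uhrf1 at 92.3%.

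**Figure D2:**
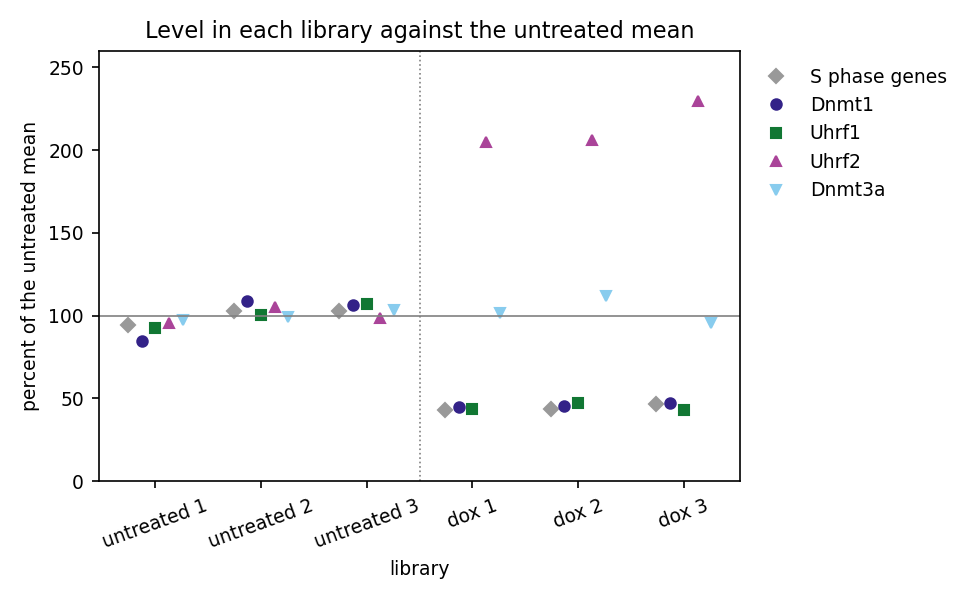
Level in each library as percent of the untreated mean, from CPM; S phase genes are the geometric mean of 30 genes. In the dox libraries, S phase genes, Dnmt1 and Uhrf1 lie together between 42.7% and 47.3%, Dnmt3a between 95.7% and 111.7%, and Uhrf2 between 204.9% and 229.6%.

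The de novo enzymes parted from the maintenance pair and from each other. For Dnmt3a, untreated replicates 1, 2 and 3 had 155.7, 159.1 and 165.3 CPM, and the dox replicates had 162.5, 178.7 and 153.1 CPM. The groups overlapped, and the lowest and the highest library were both in the dox group. The edgeR estimate was a log2 fold change of 0.04 (SE 0.07, adjusted p = 0.655), and -0.02 without dox replicate 2. The antisense gene Dnmt3aos shares exonic bases with Dnmt3a and had at most 1 count in any library.

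For Dnmt3b, the untreated replicates had 26.8, 27.4 and 29.8 CPM and the dox replicates 19, 20.5 and 21.8 CPM. The groups did not overlap. The mean went from 28 ± 1.6 to 20.4 ± 1.38 CPM (SD, n = 3 each), or -0.45 on the log2 scale (SE 0.09, edgeR adjusted p = 0.00234). When a change of more than 1.5-fold was required, Dnmt3b was not called. Its close copy, listed as Dnmt3b-ps1, had 0 to 5 counts per library, beside 289 to 439 counts of Dnmt3b. The catalytically inactive partner Dnmt3l had no count in any library.

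Per gene length, Dnmt1 made up most of the methyltransferase transcripts. Its share of the summed RPKM (CPM per kilobase of gene length) of Dnmt1, Dnmt3a and Dnmt3b was 87.5%, 89.8% and 89.2% in untreated and 79.6%, 78.3% and 80.8% in dox replicates 1, 2 and 3. The share of Dnmt3a was 7.98% ± 0.88 before and 15.9% ± 1.34 after dox, and that of Dnmt3b 3.18% ± 0.33 and 4.5% ± 0.21 (SD, n = 3), with no overlap between groups for any of the 3 shares. The summed level went from 205.4 ± 25.2 to 105 ± 2.14 RPKM. Each of these differences had an exact permutation p = 0.1, the smallest that 3 libraries against 3 can give. The log2 ratio of Dnmt3a and Dnmt3b together to Dnmt1 was higher by 1.03 after dox, and that of Dnmt3a to Dnmt3b by 0.50 (exact permutation p = 0.1 each, adjusted p = 0.2 over the 6 ratios).

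**Figure D3:**
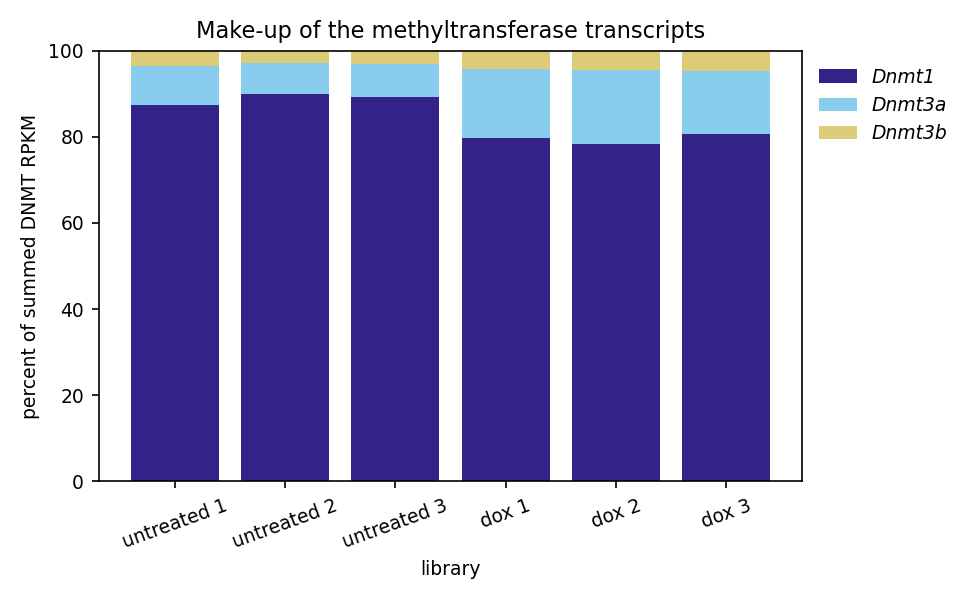
Percent of the summed RPKM of the 3 methyltransferase genes in each library. Dnmt1 takes 87.5% to 89.8% in untreated and 78.3% to 80.8% in dox libraries, with the rest mostly Dnmt3a.

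On the erasing side, Tet3 held nearly all transcripts in the deposited counts. Tet2 reads outside the gene model used would be missed, as described below. The untreated replicates had 154, 156.2 and 148.3 CPM, and the dox replicates 174.4, 186.6 and 157.3 CPM. The groups did not overlap, but dox replicate 3 stood just above the highest untreated library. With a log2 fold change of 0.18 (SE 0.08) and an edgeR adjusted p = 0.0755, Tet3 was not called. It was called with upper-quartile scaling (0.20, adjusted p = 0.0479) and without dox replicate 3 (0.23, adjusted p = 0.0188). Tet3 made up 98.5% ± 0.25 of the summed TET RPKM in untreated and 96.4% ± 0.16 in dox libraries (SD, n = 3).

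Tet1, the founding enzyme of the family, was scarce and rose. It had 49, 44 and 36 counts in untreated and 108, 132 and 112 counts in dox replicates 1, 2 and 3. These are 3.42, 2.95 and 2.45 CPM against 7.11, 9.19 and 7.17 CPM, with no overlap between groups. The edgeR log2 fold change of 1.41 (SE 0.20, adjusted p = 0.000324) was the largest change among the 6 tested genes. Per gene length Tet1 remained low after dox, at 0.56 ± 0.08 RPKM against 0.21 ± 0.04 RPKM before (SD, n = 3), above 4.85% of the genes tested. It made up 1.48% ± 0.22 and 3.4% ± 0.32 of the TET transcripts.

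Tet2, the TET gene known for mutation in blood cancers, had few counts. There were 2, 1 and 1 counts in untreated and 9, 2 and 4 counts in dox replicates 1, 2 and 3, over a gene length of 9181 bases. The groups overlapped, and dox replicate 1 held 9 of the 19 counts. The ratio of the summed counts, 15 against 4, was 3.65 (exact binomial 95% interval 1.16 to 15.1, counting error only). With no low-count filter edgeR gave Tet2 a log2 fold change of 1.74 (SE 0.82, adjusted p = 0.119), not called. The gene model behind these counts is not known here, so reads from Tet2 exons outside it would be missed, and the low level holds for the deposited counts only. A gene on the other strand shares exonic bases with Tet2, and without a known strand setting its reads cannot be told apart from those of Tet2.

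Markers of myeloid cells were higher in the same libraries. Of 15 macrophage and monocyte markers 12 were tested and 10 were called higher, and summed levels were 22.3 to 30.75 CPM without dox, against 124.1, 55.7 and 69.2 CPM in dox replicates 1, 2 and 3. Of 14 neutrophil markers 11 were tested and 9 were called higher, with sums of 93.8 to 120.8 CPM without dox, against 557.9, 119.2 and 264.4 CPM in dox replicates 1, 2 and 3. With limma voom 5 neutrophil markers were called higher, and with a minimum fold change of 1.5 the number was 0. It was 3 without untreated replicate 2 and 12 without dox replicate 2. Lyz2 and S100a9, the most abundant of each list, stood at 75.2 and 169.9 CPM in dox replicate 1, and no marker of either list was at 0 in all libraries. The Tet2 counts of 9, 2 and 4 had the order of both sums, but without Lyz2 the macrophage sum was 48.8, 39 and 34.2 CPM in dox replicates 1, 2 and 3, another order. Tet1 was highest in dox replicate 2, as were the macrophage and monocyte markers C1qa, C1qb, Cd68 and Mertk. The other tested markers of that list, Csf1r, Adgre1, Lyz2, Mrc1, C1qc, Vcam1, Ly6c2 and Ccr2, were highest in dox replicate 1. Of 12 T and NK cell markers, 2 were tested and Prf1 was called higher. Their summed level was 3.36 to 5.71 CPM in untreated libraries and 3.95, 10.2 and 4.74 CPM in dox replicates 1, 2 and 3, with Klrb1c, not called, at 9.19 CPM in dox replicate 2. Cd3e, Cd8a and Trbc2 were at 0 in all libraries. Prf1 had 2, 3 and 10 counts in untreated and 17, 9 and 19 counts in dox replicates 1, 2 and 3, and its groups overlapped. It was not called with the DESeq2 test or with a minimum fold change of 1.5. Leaving out untreated replicate 1, untreated replicate 2, dox replicate 1 or dox replicate 3 also removed the call. The 3 tested of 9 erythroid markers were not called. The part of other cell types in the Tet1 and Tet2 values was not tested.

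Relative to Dnmt1, Dnmt3a and Dnmt3b together, the TET genes made up more of the counted transcripts after dox. Uhrf1 was left out of these sums. Most of the shift was the fall of Dnmt1, from 183 ± 24.7 to 83.6 ± 2.44 RPKM (SD, n = 3 each). The TET sums take the deposited counts of Tet2, with the limit given above. The summed TET RPKM went from 14.2 ± 0.40 to 16.4 ± 1.41, and its share of the 6 enzymes' transcripts was 7.54%, 6.16% and 5.94% in untreated and 13.9%, 14.4% and 12.3% in dox replicates 1, 2 and 3. The log2 ratio of the TET sum to the DNMT sum was -3.84 ± 0.20 before and -2.68 ± 0.14 after dox (SD, n = 3), a 2.24-fold difference (exact permutation p = 0.1, adjusted p = 0.2 over the 6 ratios).

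In order of level per gene length, untreated cells held Uhrf1 (389 ± 28.7 RPKM), Dnmt1 (183 ± 24.7), Dnmt3a (16.2 ± 0.49), Tet3 (14 ± 0.37), Dnmt3b (6.48 ± 0.37), Tet1 and Tet2. After dox, the order of the means was the same, with Uhrf1 at 174 ± 8.61 RPKM and Dnmt1 at 83.6 ± 2.44 RPKM. Neighbours in this order did not overlap between libraries, except that Dnmt3a (15.5 to 18.1 RPKM) and Tet3 (14.4 to 17.1 RPKM) overlapped after dox. Uhrf1 and Dnmt1 stood above 98.8% and 96.9% of all tested genes in untreated and above 96.8% and 91.8% in dox libraries, so they remained abundant.

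The genes with the most similar profiles were found by the distance between centred log2 CPM profiles over the 6 libraries, among 9235 genes of at least 10 CPM on average. Closest to Dnmt1 were Tonsl (distance 0.08) and Cdca5 (0.11), and closest to Uhrf1 were Pkmyt1 (0.08) and Chaf1a (0.11). Tonsl acts at stressed replication forks, Cdca5 encodes sororin of the cohesin complex, Pkmyt1 is an inhibitory kinase of mitotic entry and Chaf1a loads histones behind the fork. The nearest profiles to Dnmt3a were Tulp4 and Dhx37 (0.05 each), to Dnmt3b Wdr70 (0.08) and Pes1 (0.09), to Tet3 Ttc39b and Rptor (0.06 each), and to Tet1 Scd1 (0.22) and Atp8a1 (0.23). Dnmt1 and Uhrf1 lay 0.22 from each other, and Dnmt3a and Tet3 0.20.

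Cofactors of the writers went both ways. Of 12 on the list used 10 were tested, 4 fell (Hells, Cdca7, Nsd2 and Ehmt1), 3 rose (Uhrf2, Zbtb24 and Nsd1) and 3 were not called, with a median log2 fold change of 0.05. Cdca7 and Hells, which form a remodeller needed for methylation of packed DNA, fell from 411 ± 19.3 to 144.3 ± 14.4 CPM and from 203 ± 8.98 to 86.8 ± 12 CPM (SD, n = 3). Uhrf2, the paralog of Uhrf1, rose where Uhrf1 fell. The untreated replicates had 154.5, 170.2 and 159.5 CPM and the dox replicates 330.7, 333 and 370.6 CPM, a log2 fold change of 1.09 (SE 0.07, adjusted p = 8.86e-06, edgeR). Zbtb24 lost its call whichever single library was left out. Without untreated replicate 3, 1 of these 3, Uhrf2, was still called higher. Ehmt1 was not called without untreated replicate 2, untreated replicate 3, dox replicate 1 or dox replicate 3.

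Among 8 partners of the TET enzymes, 5 were tested, 3 fell (Hmces, Prmt1 and Rbm14), Ogt rose and Cxxc5 was not called, with a median of -0.47. Ogt, the sugar transferase that binds TET proteins, rose from 291 ± 36.2 to 462 ± 55.9 CPM (log2 fold change 0.67, SE 0.11, adjusted p = 0.00102, edgeR).

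Genes that repair oxidised or deaminated cytosine moved both ways. Of 17 listed 16 were tested, 8 rose, 6 fell and 2 were not called, with a median of 0.51. Ung, the uracil glycosylase, fell from 69.2 ± 4.01 to 24.7 ± 1.64 CPM and Apex1, the next enzyme of base excision, from 169 ± 2.54 to 82.9 ± 7.01 CPM. Tdg, the glycosylase that removes oxidised methylcytosine, changed by -0.33 (SE 0.07) on the log2 scale and was called lower. Apobec1, a cytidine deaminase of RNA, rose from 125.5 ± 3.29 to 317 ± 11.8 CPM (SD, n = 3).

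Among 8 genes listed as readers of methylated CpG or as their relatives, 7 were tested and 4 rose (among them Mbd1, Zbtb33 and Zbtb4). Of the others, 2 fell (Mbd2 and Mbd3) and 1, Zbtb38, was not called, with a median of 0.28 over the tested genes. Zbtb4, a zinc finger protein, rose from 17.5 ± 0.41 to 44.6 ± 3.28 CPM, and the log2 fold changes of the other called genes lay between -0.39 and 0.42. Without untreated replicate 3, only Zbtb33 and Zbtb4 of the risers were called.

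Most called genes of methyl donor supply were lower. Of 13 genes of the methionine and folate cycles 12 were tested, 7 fell, 1 rose and 4 were not called, with a median of -0.75. Mat2a, which makes S-adenosylmethionine, fell from 374 ± 21.4 to 214 ± 11.2 CPM, and Ahcy, which clears its by-product, changed by -0.91 (SE 0.12) on the log2 scale. The folate enzyme genes Shmt1 and Mthfd1 fell by 1.45 (SE 0.08) and 1.16 (SE 0.09). Several folate genes also serve nucleotide synthesis. Of 14 genes around 2-oxoglutarate, the co-substrate of TET enzymes, 8 fell, 2 rose (Idh1 and D2hgdh) and 4 were not called, with a median of -0.21. Idh3a and Fh1, genes of the citric acid cycle, changed by -0.63 (SE 0.08) and -0.58 (SE 0.08). D2hgdh was not called without untreated replicate 1, untreated replicate 3, dox replicate 1 or dox replicate 2, which left Idh1 alone among the risers. Among the genes that fell, Idh3b (-0.17, SE 0.06) lost its call whichever single library was left out. Dlst lost its call without untreated replicate 2 or untreated replicate 3.

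**Figure D4:**
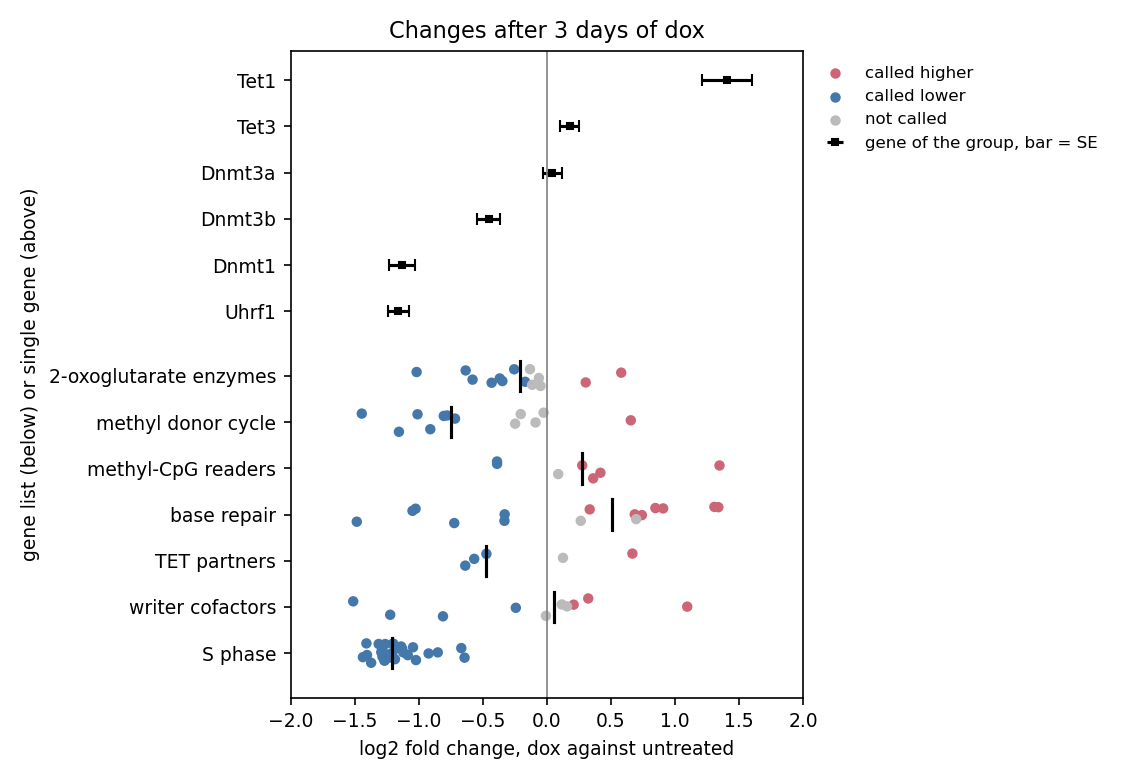
Log2 fold change of dox against untreated: black squares are the 6 tested genes of the group with SE bars, coloured points are the tested genes of 7 related lists and vertical ticks are list medians. S phase genes, Dnmt1 and Uhrf1 lie near -1.2, the methyl donor cycle has a median of -0.75, and Tet1 is the riser of the group. The horizontal axis ends at 2, and a base repair point beyond it is not drawn.

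Germline genes that promoter methylation is known to silence were close to undetected in both groups. Of 16 listed, 10 had no count in any library and 2, Sycp1 and Sycp3, passed the filter. Of these, 0 were called by edgeR, limma voom or DESeq2, and 0 had an unadjusted p under 0.05. The summed level of all 16 was 3.13 to 4.26 CPM in untreated and 3.16 to 3.83 CPM in dox libraries. Of 20 imprinted genes, whose methylation differs between parental copies, 8 were tested, 3 rose (Igf2r, Zrsr1 and Peg13), 1, Grb10, fell and 4 were not called, with a median of 0.38. Peg13, a noncoding RNA, rose from 26.9 ± 3.48 to 54 ± 5.13 CPM (SD, n = 3). Grb10 was not called without untreated replicate 1. DNA methylation itself was not measured in the files used here.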

How the data were processed

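RNA of 6 libraries, 3 untreated and 3 dox, was analysed from whole-number counts per gene that the authors deposited with Entrez Gene identifiers and gene lengths. The submitters' processing notes name genome build mm9, featureCounts and CASAVA 1.8.2. The aligner is not given in the sources used here, nor are annotation and strand setting. Identifiers were matched to symbols through RefSeq (24176 of 26286). Genes were kept by filterByExpr (minimum count 10), which left 12275 genes with 99.93% of counts, scaled by TMM (factors 0.991 to 1.009) and tested with edgeR 4.0.16 (quasi-likelihood, no covariates) in R 4.3.3. The 6 per-sample files held the same counts. RPKM used the deposited length. The SE is the log2 fold change over the square root of F. Alternatives used DESeq2 1.42.0 and limma 3.58.1. Scripts were tested on simulated data.

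The members and lists were chosen with earlier results of these data known. Genes named are the members, the 3 smallest p in each of the 9 pathway lists, the 2 nearest profiles of each tested member, and genes behind counts of 5 or fewer; others, such as Tdg and Ahcy, were chosen after their values were seen. Of 200 list entries, 199 matched; Ahsp did not, and Cxxc4 was entered under an older symbol as well. Sequences came from RefSeq promoters of GRCm38.p6, another build than that of the files, so no other coordinates are given; protein sequences were not used here. A few list genes enter the counts and are not reported here by name.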

Additional observations from a re-analysis of the deposited data

How the results depend on the processing

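Dnmt1, Uhrf1 and Tet1 kept their direction and their call under every alternative run, with log2 fold changes of -1.24 to -1.07, -1.22 to -1.11 and 1.28 to 1.53. Dnmt3b kept its direction and lost its call only when a minimum fold change of 1.5 was required. Dnmt3a was 0.0852 at its highest, without dox replicate 3, and -0.0202 without dox replicate 2 and was called nowhere. Members called higher numbered 2 with upper-quartile scaling, with Tet3 added, and 1 to 2 when single libraries were left out. A minimum fold change of 1.5 left 928 genes higher and 670 lower over all genes. Of the 2-oxoglutarate genes, 1 was higher with no low-count filter and 1 with the DESeq2 test. Leaving out single libraries gave 1 to 2 higher there, 1 to 2 higher among writer cofactors, 2 to 4 higher among methyl-CpG readers and 0 to 1 lower among imprinted genes. The same step moved the difference in the log2 ratio from -0.0217 to 0.0985 for Dnmt1 over Uhrf1, from -0.0266 to 0.0971 for Dnmt1 over S phase genes and from -0.0366 to 0.0731 for Uhrf1 over S phase genes, each of which has a main value near 0; the cause was not tested. With the replicate number as a block, 3434 genes were higher and 3356 lower, and of the members 1 was higher and 3 were lower, so it changed no member's call. Same-numbered libraries deviated together with correlations of 0.31, 0.29 and -0.04, so the numbers were not taken as pairs, and with 3 such pairs the ratios could not go below p = 0.25. Precision is lowest for Tet2, with 19 counts in all, and for Tet1, with 36 to 132 counts per library.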
